A study of Bos taurus with 40 samples.

Results

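The 50 genes described here were those whose RNA followed that of HSPA5 most closely among the livers of 10 Simmental bulls. HSPA5 encodes BiP, the most abundant chaperone of the endoplasmic reticulum, which binds new secretory proteins while they fold and holds the sensors of the unfolded protein response in their resting state. When unfolded proteins accumulate, those sensors are released and the genes of chaperones, folding enzymes and export factors are induced, HSPA5 among them. The liver makes most of the proteins of blood plasma, so this pathway is used heavily there, whereas muscle fibres secrete little. The members were ranked by correlation in the bull livers alone, among candidates limited by their mean level in heifer muscle. The question addressed was whether they also followed HSPA5 in liver and muscle of heifers, and whether they differed with feed efficiency.

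Members were chosen as follows. On the scale log2(CPM + 1), where CPM is the read count of a gene scaled to a common library total, as deposited, the mean of each feed efficiency group was subtracted for every gene, and the 50 genes with the highest Pearson correlation (r) to HSPA5 were kept. They came from 4247 candidates, the genes also listed in heifer muscle with a mean CPM in bull liver between 0.125 and 8 times that in heifer muscle, out of 8482 listed in the tissues examined. HSPA5 and 6 further genes, HYOU1, DNAJB11, MANF, CRELD2, GMPPB and GNPNAT1, were left out by the rule. The r values in bull liver therefore describe the choice and were not tested. They ran from 0.829 to 0.966 with a median of 0.868, against a median of -0.08 over the candidates. The members at ranks 49 and 50 had r values of 0.830 and 0.829, and the genes at ranks 51 and 52 were both at 0.828, so there was no gap at the limit. The files give Ensembl identifiers without symbols or positions, so members are described by identifier and value, and their functions are not given.

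The animals were bulls and heifers of high (inefficient) or low (efficient) residual feed intake (RFI), the feed eaten beyond that predicted from body weight and growth. All came from one purebred herd, were housed for the test at about 15 months of age on ad libitum concentrate with grass silage, and were biopsied at its end. They were the extremes of the RFI ranking within each sex, and RFI was not changed by a treatment. The livers of 5 high and 5 low RFI bulls, of 4 high and 3 low RFI heifers, and the longissimus muscle of 5 high and 5 low RFI heifers entered the comparisons, 27 of the 40 samples of the series. Heifers 2704 and 2632 gave both a liver and a muscle sample. Each sample was from 1 animal.

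The depth of the 27 libraries was 2368340 to 35691049 reads with a median of 19529968, and bull 2713 (low RFI) had the fewest. The labelled tissue was checked with genes over 32 times more abundant in the other tissue: their levels corresponded to at most 0.363% of the other tissue in the 27 samples. In the liver samples of heifers 2728, L58 and L16 they corresponded to 42.6%, 100% and 76.4% of muscle, and the rule left these 3 out. The measure was capped at 100%, so the value of L58 is the upper limit. In muscle, the library of high RFI heifer 2628 stood apart, since the deviations of single genes from their group mean had an SD of 1.02 on the log2 scale, against 0.233 to 0.488 in the other 9. Values without bull 2713, heifer 2628 or another single animal are given beside the group results that they move. In tissue biopsies, fewer cells of a type and less RNA per cell cannot be told apart.

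In bull liver the members and HSPA5 varied together over a wide range of HSPA5. All levels from here on are in CPM scaled between the samples of a tissue by a trimmed mean of M values. HSPA5 was at 190.7, 228, 236, 285 and 365 scaled CPM in the high RFI bulls and at 287, 567, 705, 780 and 1024 scaled CPM in the low RFI bulls. The lowest low RFI bull, 2713, fell among the high RFI bulls and the other 4 lay above all of them. The mean level of the 50 members on the log2 scale was 5.38, 5.38, 5.46, 5.56 and 5.68 in the high RFI bulls and 5.20, 5.60, 5.74, 5.80 and 5.93 in the low RFI bulls. In the low RFI bulls the members and HSPA5 put the 5 animals in the same order, from 2713 up to 2712. The members were chosen on these bulls, so this shared order describes the choice.

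**Figure D1:**
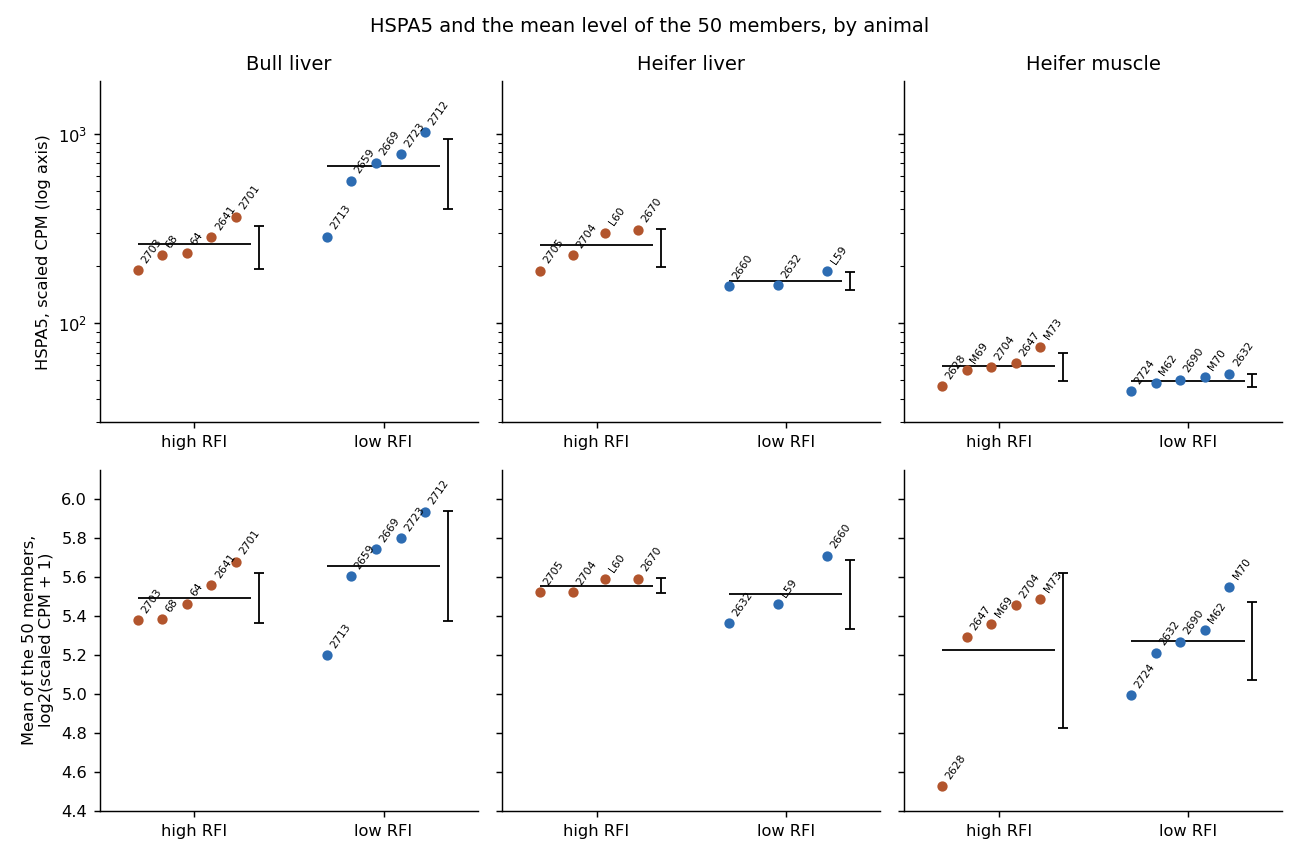
HSPA5 in scaled CPM on a log axis (upper row) and the mean of the 50 members as log2(scaled CPM + 1) (lower row), with 1 point per animal named by its tag. Horizontal lines are group means and bars on the right of each group are SD. In bull liver, 2713 is lowest of the low RFI bulls in both rows, and in heifer muscle 2628 is lowest for the members at 4.53.

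The members were moderately expressed genes, and in bull liver their changes were smaller than those of HSPA5. Their mean deposited CPM in bull liver ran from 10.99 to 653 with a median of 42.2 (31.5 over the candidates), in heifer liver from 10.7 to 646, and in heifer muscle from 9.81 to 866. On the deposited scale, for each doubling of HSPA5 within a group of bulls they changed by 0.18 to 0.87 log2 units, with a median of 0.35, and their spread within groups (median SD 0.206 in log2 units) was close to that of the candidates (0.198). Of the 50, 31 had a higher mean CPM in bull liver than in heifer muscle, with a median ratio of 1.15 (1.08 over the candidates).

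The membership depended on which bulls were used. After group means were removed, all 50 members had their lowest scaled level of the 10 bulls in 2713, where 16.4% of all genes had theirs, and 2713 had the lowest HSPA5 of the low RFI bulls. Repeating the choice without 2713 kept 17 of the 50, without low RFI bull 2712 20, and without any other single bull 29 to 42. In the 9 bulls without 2713, r to HSPA5 on the deposited scale was 0.474 to 0.965 for the members with a median of 0.792, and 47 of 50 were among the 500 candidates with the highest r. These values are descriptions of the same bulls that chose the members.

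In heifer liver, whose samples played no part in the choice, no member passed the test of its slope on HSPA5. The median slope depended on single heifers. HSPA5 was at 189.9, 228, 301 and 312 scaled CPM in the high RFI heifers and at 157, 159 and 189 in the low RFI heifers. The member level was 5.52, 5.52, 5.59 and 5.59 in the high RFI heifers, whose 2 heifers with more HSPA5 also had the higher member level. In the low RFI heifers it was 5.36 in 2632, 5.46 in L59 and 5.71 in 2660, so 2660 had the highest member level and the lowest HSPA5 of the 7. With group means removed, the correlation of the member level with HSPA5 was 0.12 over the 7 heifers and 0.85 over the 6 without 2660, where the member level changed by 0.13 log2 units per doubling of HSPA5.

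Each gene was fitted with a slope on the log2 level of HSPA5 beside a term for RFI group (limma, p-values adjusted by Benjamini-Hochberg over all genes, threshold 0.1). No member passed, and neither did any of the 7230 genes (0%), the smallest adjusted p of a member being 1.00. The slopes of 26 of the 50 members were positive, 52% against 48.7% of all genes. Without 2660, 34 of 50 were positive against 48.99% of all genes and the median slope was 0.09, without L60 23 of 50 were positive and it was -0.06, and no member passed with any 1 heifer left out. With all 7 heifers the median slope was 0.01 for the members and -0.01 for all genes, with a median SE of 0.36 for a member. A slope as large as the median of 0.35 in bulls was thus within the error of a single member. That 0.35 was on the deposited scale, in the bulls that chose the members. At an unadjusted p under 0.05, 1 of 50 members had a positive slope, against 0.553% of all genes, and 0 of 50 a negative one, against 0.83%. The correlations with group means removed ran from -0.78 to 0.83 over the members, with a median of 0.02 (n = 7 heifers) against -0.01 over all genes. On the CPM as deposited, 43 of 50 slopes were positive, but so were 66.4% of all genes, and the medians were 0.14 and 0.11. With the 3 left-out samples included, the median slope was 0.18 against 0.05 over all genes.

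Individual members differed in heifer liver. ENSBTAG00000005012, first by r in bull liver, was one of the 2 members with the smallest p for a positive slope. Its level was 24.2, 30.6, 41.6 and 45.5 scaled CPM in high RFI heifers, in the same order as HSPA5, and 19.6, 34.7 and 34.8 in low RFI heifers. Its slope was 1.21 ± 0.43 (SE, n = 7), adjusted p = 1.00 with limma, and it was the 1 member under the unadjusted limit of 0.05. The other was ENSBTAG00000013162, a more abundant gene at 476 to 791 scaled CPM in these heifers, with a slope of 0.78 ± 0.39 (SE). ENSBTAG00000010376 and ENSBTAG00000014440 had the lowest slopes, -0.40 ± 0.31 and -0.28 ± 0.37 (SE). The former was highest, at 66.1 scaled CPM, in 2705, the high RFI heifer with the least HSPA5. It was lowest among high RFI heifers, at 52.7 scaled CPM, in 2670, the heifer with the most. None of these 4 slopes passed the threshold.

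The 6 other genes that the rule had left out were fitted in the same 7 heifer livers. HYOU1, an endoplasmic reticulum chaperone, had a slope on HSPA5 of 0.79 ± 0.31 (SE, adjusted p = 0.9999 with limma). The slope of MANF, a secreted protein of the stress response, was 0.99 ± 0.40, that of DNAJB11, a co-chaperone of BiP, 0.60 ± 0.36, and that of CRELD2, a folding factor, 1.09 ± 0.52. The slopes of GMPPB, which makes the sugar donor GDP-mannose, and GNPNAT1, an enzyme of UDP-N-acetylglucosamine synthesis, were lower, at 0.23 ± 0.39 and 0.30 ± 0.38. None of these 6 passed after adjustment. On the deposited CPM their correlations with HSPA5 were 0.937 for HYOU1, 0.769 for MANF, 0.751 for DNAJB11, 0.647 for CRELD2, 0.579 for GNPNAT1 and 0.398 for GMPPB (n = 7). Of the 7230 genes, 9 had a higher r than HYOU1, 189 than MANF and 224 than DNAJB11. A higher r than CRELD2 was found for 471, than GNPNAT1 for 739 and than GMPPB for 1665. The members' median on that scale was 0.241, against 0.144 over all genes. These values are given side by side as descriptions, and the difference between the named genes and the members was not tested.

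**Figure D2:**
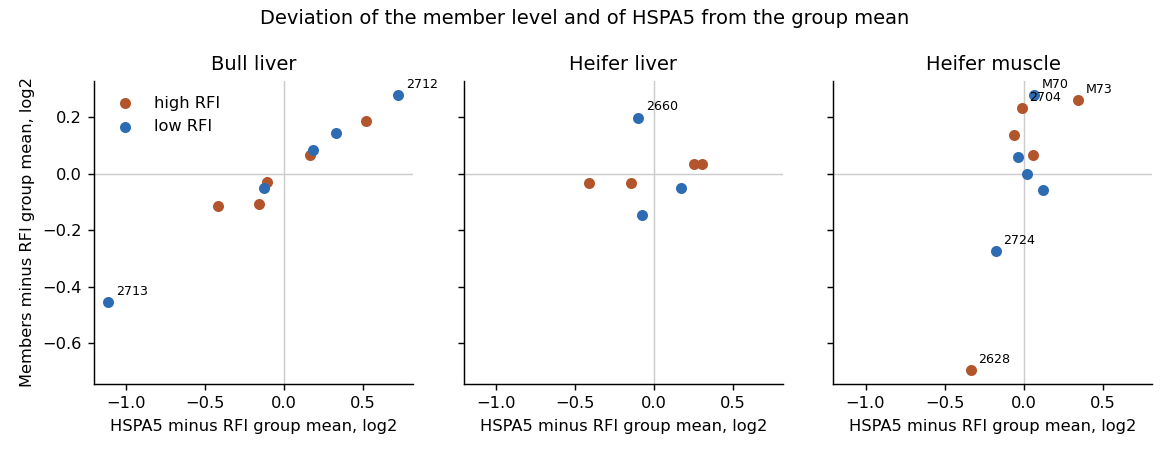
Deviation of the mean member level from its RFI group mean against that of HSPA5, both in log2 units of scaled CPM, with 1 point per animal. Bulls lie along a line from 2713 to 2712, heifer livers show a flatter spread (r of 0.12, or 0.85 without 2660, which lies above the others), and in heifer muscle 2628 lies lowest at -0.70.

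The members varied together in all 3 sets of samples. The mean correlation between pairs of members, with group means removed on the deposited CPM, was 0.783 in bull liver, where the choice fixed it, 0.438 in heifer liver and 0.509 in heifer muscle. Between pairs of candidates it was 0.057, 0.043 and 0.130. Without bull 2713 the members' value in bull liver was 0.637, without heifer 2660 that in heifer liver was 0.269, without heifer 2632 it was 0.299, and without heifer 2628 that in muscle was 0.394, where candidates had 0.062, 0.061, 0.046 and 0.202. Pairs share libraries, so these are descriptions. For the same reason, counts out of the 50 members in any comparison are not counts of separate outcomes. In heifer liver, 40 of 50 members were below their group mean in 2632 and 4 of 50 in 2660.

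In heifer muscle the members leaned to positive slopes on HSPA5, but none passed the test and the size of the slopes depended on heifer 2628. The mean levels in these muscle samples had limited the candidates, but their correlations with HSPA5 were not used in the choice. HSPA5 was 46.6, 56.5, 58.6, 61.4 and 75.3 scaled CPM in the high RFI heifers and 44.0, 48.6, 50.4, 52.2 and 54.3 in the low RFI heifers, well below the liver and over a narrower range. The member level was 4.53, 5.29, 5.36, 5.45 and 5.48 in the high and 4.99, 5.21, 5.27, 5.33 and 5.55 in the low RFI heifers. Heifer 2628, lowest for HSPA5 among the high RFI heifers, was lowest of all 10 for the members, and heifer 2724, lowest for HSPA5 in the low group, was also its lowest for the members.

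Of the 50 slopes, 43 were positive, 86% against 49.5% of all genes, with a median of 1.40 against -0.02 over all genes. The members varied together, so this and the counts below are not outcomes of 50 separate genes. With group means removed, 36 of 50 had their lowest scaled level in 2628, where 35.1% of all genes had theirs. No member and none of the 5546 genes (0%) passed the threshold of 0.1 with limma, and the smallest adjusted p of a member was 0.124. At an unadjusted p under 0.05, 25 of 50 members had a positive slope, and so had 19.8% of all genes, while 0 of 50 had a negative one, against 10.9%. The median slope of 1.40 was near the upper quartile of all genes, 1.41. A two-sided exact permutation of the animals within RFI groups gave 17 of 50 members with positive r at an unadjusted p under 0.05 against 5.41% of all genes, and no adjusted p under 0.384. Without heifer 2628 the median slope was 0.50 against 0.07 over all genes, 42 of 50 slopes were positive against 54.3%, and 1 member was under the unadjusted 0.05. The median r over members was 0.68 with 10 heifers and 0.31 with 9, where all genes had -0.01 and 0.03.

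The count of members called in heifer muscle moved with the setting. On the CPM as deposited 32 of 50 members were called with a positive slope, where 31.2% of all genes were called. Leaving out low RFI heifer 2632 called 27 of 50 against 25.4% of all genes (and 1 member with a negative slope against 18.6%), and leaving out high RFI heifer M73 called 10 of 50 against 5.81%, with a median slope of 2.02. ENSBTAG00000014440, at 11.6 scaled CPM in 2628 and 31.1 to 44.5 in the other high RFI heifers, had a slope in muscle of 1.94 ± 0.83 (SE, adjusted p = 0.145 with limma). Its slope was 0.30 without 2628 (adjusted p = 0.999 with limma) and 3.67 without M73 (adjusted p = 0.0952 with limma). ENSBTAG00000005012 had a slope of 1.17 ± 0.49 (SE, adjusted p = 0.142 with limma), with 20.6, 23.3, 31.7, 36.0 and 36.7 scaled CPM in the high and 16.9, 18.5, 19.6, 20.8 and 23.6 in the low RFI heifers. Without 2628 its slope was 0.95. This gene had positive slopes in both heifer tissues, neither past the threshold with all animals, and without heifer 2632 the muscle slopes of both genes passed it (adjusted p = 0.0628 for ENSBTAG00000005012 and 0.0639 for ENSBTAG00000014440 with limma).

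**Figure D3:**
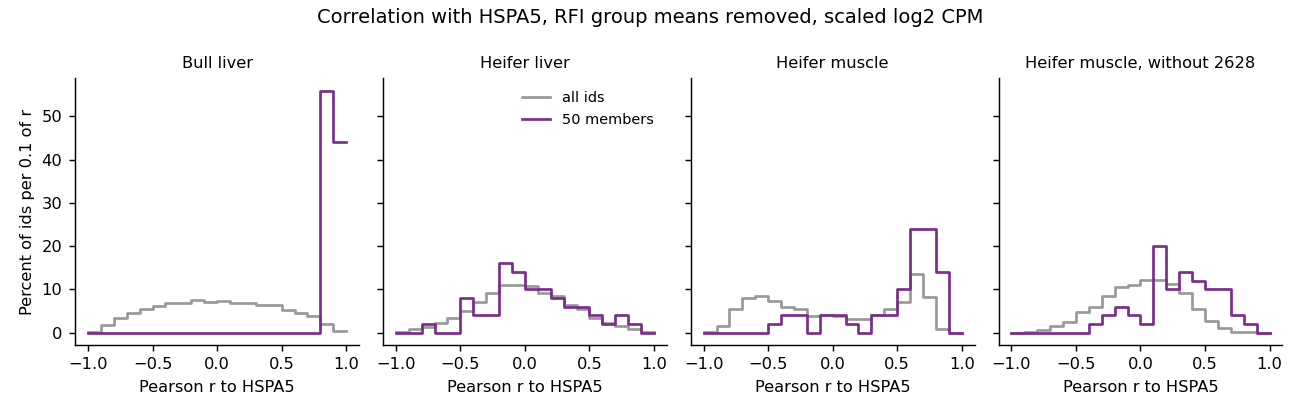
Share of genes, in percent per 0.1 of r, by their Pearson r to HSPA5 with RFI group means removed, for the 50 members and all genes (ids) of each set. The members overlie all genes in heifer liver (medians 0.02 and -0.01), lie to the right in heifer muscle (0.68 and -0.01), and lie less far to the right without heifer 2628 (0.31 and 0.03).

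The second question was whether the members differed between low and high RFI. In bull liver no member passed (limma, low minus high RFI, adjusted p under 0.1) and none of the 7363 genes did (0%). The differences of the members were -0.13 to 0.57 on the log2 scale with a median of 0.13, against 0.00 over all genes, and 45 of 50 were positive against 50.3% of all genes. At an unadjusted p under 0.05, 9 of 50 were higher in low RFI bulls against 3.73% of all genes and 0 of 50 were lower against 3.8%, and the smallest adjusted p was 0.645. HSPA5 itself differed by 1.28 ± 0.29 (SE, n = 5 and 5, adjusted p = 0.645 with limma). The study's edgeR test on counts, at the same threshold, called HSPA5 and the other genes left out by the rule higher in low RFI bulls. Its result therefore differed from that of limma on CPM, and it was not run here. Group means were removed for the choice, but the members were chosen in these bulls against a gene already listed for this difference. Their lean is therefore not separate evidence of it. For 1 member the low RFI bulls all lay above the high RFI bulls, as for 0.489% of all genes, and for 0 members below them, as for 0.516%. Without bull 2713, in which the members were lowest, the median was 0.25 and all 50 were positive against 50.3% of all genes, but the smallest adjusted p of a member was 0.116 and none passed. Without bull 2712, in which the members were highest, the median was 0.07 and 35 of 50 were positive.

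Among the members, ENSBTAG00000013162 had the largest difference in bull liver. It was at 428, 445, 491, 499 and 764 scaled CPM in high RFI bulls and at 506, 736, 758, 864 and 1067 in low RFI bulls. The groups overlapped only through high RFI bull 2701, at 764, and the difference was 0.57 ± 0.20 (SE, adjusted p = 0.645 with limma). ENSBTAG00000005012 was at 22.7, 24.6, 25.04, 25.4 and 33.0 scaled CPM in high and 17.5, 38.1, 41.3, 49.8 and 61.96 in low RFI bulls, with 2713 below every high RFI bull and the other 4 above. The differences of the other named members were 0.06 ± 0.22 (SE) for ENSBTAG00000010376 and 0.08 ± 0.12 (SE) for ENSBTAG00000014440.

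In heifer liver no member and none of 7231 genes (0%) passed. The members' differences were -0.53 to 0.22 with a median of -0.04 (-0.01 over all genes), and 21 of 50 were positive against 47.1%. At an unadjusted p under 0.05, 0 of 50 were higher, against 1.2% of all genes, and 0 of 50 lower, against 1.3%. The direction turned with 1 heifer: the median was 0.03 with 34 of 50 positive without 2632, and -0.12 with 13 of 50 positive without 2660. HSPA5 was lower in low RFI heifers by -0.59 ± 0.20 (SE, n = 4 and 3, adjusted p = 0.9998 with limma). In 2 members the low RFI heifers all lay above the high RFI heifers, where 1.69% of all genes did, and in 0 members below them, where 2.14% did. In heifer muscle no member and none of 5547 genes (0%) passed, the median was 0.06 against 0.01 over all genes, and 30 of 50 were positive against 51.4%. At an unadjusted p under 0.05, 0 of 50 were higher, against 0.847% of all genes, and 1 of 50 lower, against 0.793%, and in 0 members did the groups not overlap, against 0.18% of all genes in either direction. Without heifer 2628 that median was -0.14 and 16 of 50 were positive, without M70 it was -0.02 and 22 of 50 were positive, and on the CPM as deposited it was -0.19 where all genes had -0.24.

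The difference between the sexes in liver was tested as an interaction over 17 livers, heifers minus bulls in the low minus high RFI difference. No member passed and none of 7045 genes did (0%). The members' interaction was -0.99 to 0.22 with a median of -0.19 against -0.01 over all genes, and 11 of 50 were positive against 48.4% of all genes. At an unadjusted p under 0.05, 5 of 50 were negative against 2.07% of all genes and 0 of 50 positive against 1.56%, and the smallest adjusted p of a member was 0.959. Without bull 2713, 15 of 50 were negative at that limit against 2.70% of all genes and the median was -0.28, without heifer 2660 9 of 50 against 4.81% with -0.28, and without heifer 2632 2 of 50 against 1.43% with -0.11. For HSPA5 the interaction was -1.87 ± 0.41 (SE, adjusted p = 0.909 with limma). The limit given for bull liver, that the members were chosen there against HSPA5, holds here too.

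**Figure D4:**
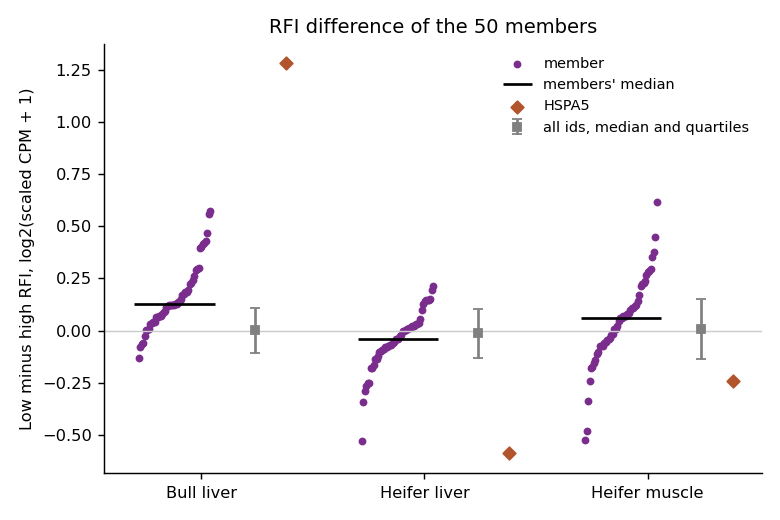
Low minus high RFI difference of each member in log2(scaled CPM + 1), with the members' median (line), the median and quartiles of all genes (grey) and HSPA5 (diamond), for the 3 comparisons. In bull liver the members' median is 0.13 and HSPA5 is at 1.28, and in heifer liver they are at -0.04 and -0.59.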

How the data were processed

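The authors aligned single-end reads to UMD3.1 with STAR 2.5.1 and counted them on Ensembl protein-coding genes with HTSeq 0.6.1p2. The deposited values are CPM, read counts divided by the library total, for part of the genes, and how the listed genes were chosen was not given in the sources used here. Depth was recovered from the CPM worth of 1 read. The 10 bull muscle files were not used, since their last rows repeat values of another sample. Samples of a tissue were brought to one scale with the TMM method (trimming 30% of fold changes and 5% of expression), 1 CPM was added, and log2 values were fitted with limma 3.58.1 (trended variance) in R 4.3.3. Other values were computed in Python 3.11.15. The slope and RFI tests were tried on simulated data, and the interaction was not. No gene was filtered. The study's edgeR test on counts was not run, as the unit is CPM.

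The members and lists were chosen with earlier results of these data known. The text names the 2 members with the smallest p for a positive slope and the 2 with the lowest slope in heifer liver, fewer than first set. Identifiers could not be paired with symbols, so lists named by symbol, cell type markers included, were not analysed here.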

Additional observations from a re-analysis of the deposited data

Results flagged for a closer look

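In all, 30 sets of values were checked, each 1 gene or the member level in 1 group of 4 or 5 animals. In 5 of them, an animal's gap to the nearest other exceeded Dixon's 95% limit. By chance about 1 in 20 separate sets would be flagged. The sets share animals and members chosen to vary together, so the 5 cannot be judged against that rate. In high RFI heifer muscle, the member level was 4.53 in 2628, with the next animal at 5.29, and ENSBTAG00000010376 was at 13.5 scaled CPM in 2628, with the next at 20.4. In high RFI bull liver, 2701 was highest for ENSBTAG00000005012, at 33.0 scaled CPM with the next at 25.4, and for ENSBTAG00000013162, at 764 with the next at 499. In low RFI bull liver, ENSBTAG00000014440 was lowest in 2713, at 27.6 scaled CPM with the next at 36.5. The part of library preparation or of the animals in these values was not tested.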

How the results depend on the processing

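No member was called in heifer liver tracking, in the 3 RFI comparisons or in the interaction under any alternative run. In heifer muscle tracking, 32 members, all with a positive slope, and 1848 genes of either sign were called on the CPM as deposited, and 0 to 27 members with a positive slope and 0 to 2438 genes of either sign when 1 animal was left out. Counts of all genes called with 1 animal left out were 0 to 1 in heifer liver tracking, 0 to 7, 0 to 2 and 0 to 0 for RFI in bull liver, heifer liver and heifer muscle, and 0 to 4 for the interaction. The rule kept 28 of 50 members with Spearman's rho, 15 without removal of group means, and 17 to 42 with 1 bull left out. With all 10 heifer liver samples the slopes of ENSBTAG00000010376 and ENSBTAG00000014440 were 0.23 and 0.74, positive in place of negative. The causes were not tested. Tests on recovered reads (edgeR and DESeq2) were not run, since the value of 1 read was inferred, and in most files the lowest count lies well above 1 read. The restriction to 4-digit tags and the correlations of the members without single animals were chosen after seeing the data. With 4-digit tags only, 36 of 50 RFI differences in bull liver were positive, against 49.2% of all genes. In heifer muscle 43 of 50 slopes were positive, against 49.8%. With heifer 2628 also left out there, the median r was 0.40 for members and 0.17 for all genes (n = 5). No paired analysis was run, since the groups compared in each test were different animals. Bull 2713 had a depth of 2368340 reads, and the slopes in heifer liver rest on 7 animals.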
